A study of Chrysodeixis includens with 4 samples.

Results

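The loci described here are long, abundant transcripts of the soybean looper, Chrysodeixis includens, that were listed at similar levels in the head and the body of the larva. They were chosen from the authors' deposited table by 3 values: a locus length of 600 bases or more, at least 200 FPKM in both tissues, and a larger value at most 1.5 times the smaller. FPKM counts sequenced fragments, adjusted for the length of the transcript and the size of the library. Of 19878 loci, 162 met the limits of length and level, and 68 of these also met the limit of fold and are termed balanced. The choice used the levels and the ratio of head to body themselves, so these are given as a description, with no test.

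The larvae were in the third instar and came from a laboratory colony, supplied by Benzon Research and reared for over 100 generations. Head and body were separated by dissection, and each tissue was sequenced as 2 replicate libraries from pools of 5 larvae, 4 libraries in all. The table holds 1 FPKM value per tissue, so no SD or n stands beside a value, and its p-values measure the spread of 2 libraries per tissue, which may be technical. The FPKM values below are the authors', and every ratio is head over body. Which value belongs to which tissue rests on the column order, and markers of head or body could not be checked because 0 loci carry a gene name.

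A caterpillar's head contains its brain, its simple eyes and the muscles of its jaws, while gut, fat body and the large trunk muscles make up much of its body. Muscle, nerve, cuticle-forming epidermis and air tubes occur in both. Transcripts needed by nearly every animal cell, such as those of ribosomal proteins, translation factors, the respiratory chain and the cytoskeleton, are the textbook examples of abundant transcripts found across tissues, and are often called housekeeping transcripts. Whether any balanced locus encodes one of these is not known from the table. In pooled tissue, fewer cells of a type and less RNA per cell cannot be told apart.

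The balanced loci spanned a wide range of levels, with a few far above the rest. The head values ran from 203 to 19085 FPKM with a median of 411 FPKM, and the body values from 203 to 22139 FPKM with a median of 465 FPKM. The quartiles lay at 310 and 882 FPKM in head and at 308 and 770 FPKM in body. At 1000 FPKM or more in both tissues there were 14 loci. The 4 most abundant loci held 45.6% of the summed FPKM of the 68 loci in head and 45.6% in body. The summed FPKM of the set was 76396 in head and 76489 in body, which was 17.8% of the sum over all loci of 600 bases or more in head and 9.05% of that sum in body. 

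**Figure D1:**
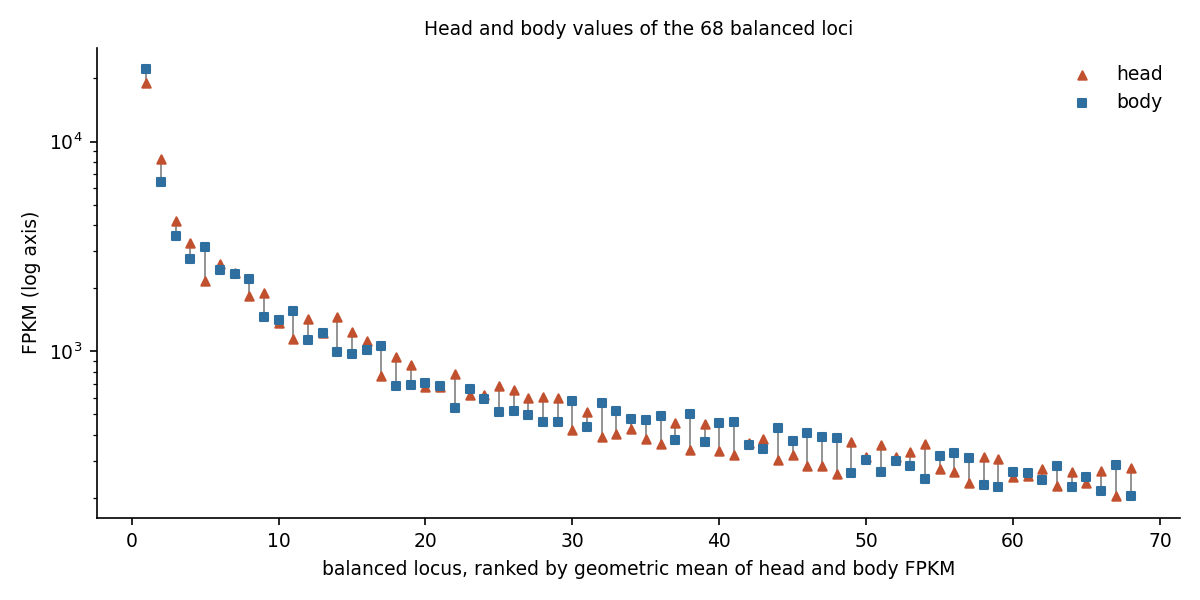
FPKM (log axis) of the 68 balanced loci in head (triangles) and body (squares), ranked by the geometric mean of the 2 tissues, with a line joining the values of a locus. One locus stands far above the rest, most lie under 1000 FPKM, and triangles and squares take turns as the higher mark along the whole ranking.

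XLOC_012697, on bases 1 to 964 of the assembled contig TRINITY_DN12781_c4_g4_i1, was the most abundant balanced locus. It had 19085 FPKM in head against 22139 FPKM in body, with a log2 ratio of -0.21. It alone held 24.98% of the summed FPKM of the balanced loci in head and 28.9% in body. Of the 68 loci it is the 1 that overlaps another locus of its contig. XLOC_012698 has the same first and last base and had 34.7 FPKM in head against 15.7 FPKM in body, so the split of reads between these overlapping loci is uncertain.

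The next 3 loci by level were all higher in head on the deposited scale. XLOC_000345, on bases 13 to 674 of TRINITY_DN10144_c4_g5_i1, had 8273 FPKM in head against 6415 FPKM in body, with a log2 ratio of 0.37. XLOC_010249, on bases 46 to 646 of TRINITY_DN12271_c1_g8_i1, had 4160 FPKM in head against 3536 FPKM in body, with a log2 ratio of 0.23. XLOC_005266, on bases 1 to 631 of TRINITY_DN11229_c0_g8_i1, had 3294 FPKM in head against 2755 FPKM in body, with a log2 ratio of 0.26. These 3 loci are 601 to 662 bases long, at the short end of the set.

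The 2 longest balanced loci had geometric means of 333 and 345 FPKM, between the lower quartile (308 FPKM) and the median (437 FPKM) of the set. XLOC_010245, on bases 12 to 2610 of TRINITY_DN12271_c1_g12_i1, is 2599 bases long and had 283 FPKM in head against 391 FPKM in body, with a log2 ratio of -0.47. XLOC_009245, on bases 1 to 2593 of TRINITY_DN12071_c1_g4_i2, is 2593 bases long and had 321 FPKM in head against 372 FPKM in body, with a log2 ratio of -0.21. Across the 68 loci, which share libraries and are no replicates of a condition, Spearman's rho between length and the geometric mean of head and body FPKM was -0.29. The median geometric mean was 528 FPKM for the 27 loci under 800 bases, 436 FPKM for the 20 loci of 800 to 1200 bases and 345 FPKM for the 21 longer loci.

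Within the fold allowed, the ratios were spread to both sides of 1 rather than heaped at 1. The median log2 ratio was 0.04, with quartiles of -0.31 and 0.32. A fold of 1.1 or less was found for 14 loci, and the median fold was 1.251. On the deposited scale 37 loci were higher in head and 31 in body, but with body rescaled so that its upper quartile equals that of head, 66 of the 68 were higher in head. That rescaling raises every log2 ratio by 0.56, and it brings the median of the 68 loci to 0.60 and the median of all 17573 loci above 0 in both tissues to 0.68, against 0.04 and 0.12 as deposited. The rule fixes the median of the balanced loci near 0 on the deposited scale, so nothing is read from these medians. Under that rescaling 54 loci met the rule, of which 28 are among the 68.

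Within the range of ratios that the rule allows, the small differences showed little relation to length or level. The rule sets limits on ratio, length and level alike, so this describes the chosen loci only. Spearman's rho of the log2 ratio was -0.093 with length and 0.080 with the geometric mean, over the 68 loci. By length, the median log2 ratio was 0.14 under 800 bases, 0.02 from 800 to 1200 bases and 0.00 above. By geometric mean it was -0.06 from 200 to 300 FPKM, -0.26 from 300 to 500 FPKM, 0.32 from 500 to 1000 FPKM and 0.12 above, with no steady order.

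Counting error was small beside these differences. The size of 1 fragment, read from the steps between the lowest values of the table, gives about 1131 to 143475 fragments per locus over the head libraries, with a median of 3557, and about 575 to 77503 over the body libraries, with a median of 1768. These numbers take the libraries of a tissue to have the same level. The counting SE of a log2 ratio was then 0.0064 to 0.074, with a median of 0.042, against a median absolute log2 ratio of 0.32. This error covers counting only, and the spread between the 2 libraries of a tissue is not in the table as a value.

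The authors' deposited table calls 0 of the 68 balanced loci (q under 0.05), against 24.3% of all 19061 tested loci. The rule used this same contrast, so nothing is read from that difference. By the unadjusted p of the authors' deposited table, also 0 of the 68 fall under 0.05. The smallest p among them was 0.141 and the median 0.471, and q ran from 0.301 to 0.994. A p above the threshold does not show equal levels. At these levels the authors' test called loci from about 2-fold upwards. Of 29 long abundant loci of 1.5-fold to 2-fold, the authors' deposited table calls 1, at 1.92-fold, which is also the smallest fold called among all loci. From 2-fold to 3-fold 18 of 22 were called, from 3-fold to 4-fold 21 of 21, and above 4-fold 21 of 22. The exception, XLOC_009527, named after its values were seen, had 217 FPKM in head against 2777 FPKM in body and was not called, with q = 0.252 as the authors' deposited table has it. A difference of up to 1.5-fold in either direction was thus below what this test called here, and 37.7% of the 162 long abundant loci were called in all.

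**Figure D2:**
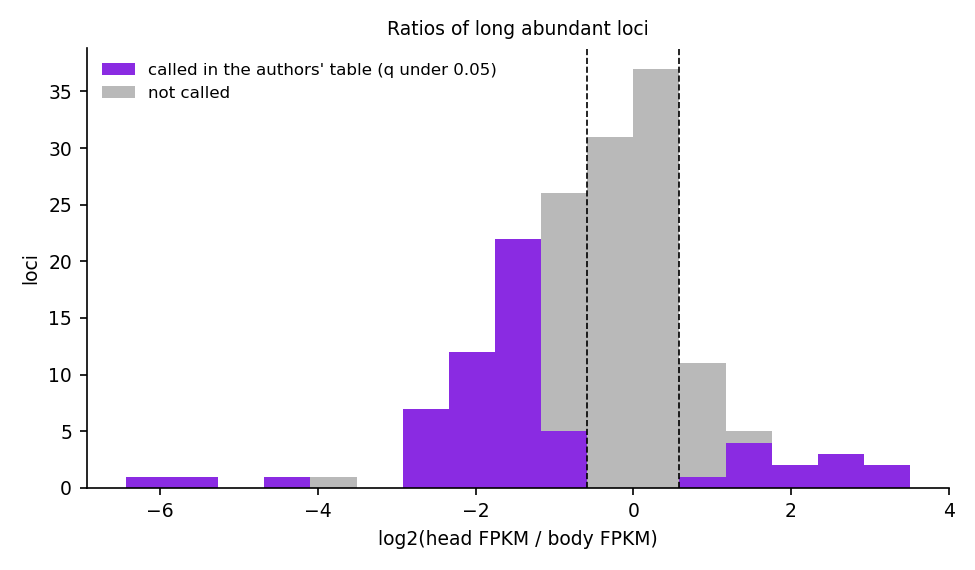
Number of loci by log2 ratio of head over body FPKM for the 162 loci of 600 bases or more with 200 FPKM or more in both tissues, split by the call in the authors' deposited table; dashed lines mark 1.5-fold. None of the 68 loci between the lines was called, and on this deposited scale the counts are larger to the left, where body is higher, than to the right.

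The values on both sides of each limit show that the set has no natural edge. The shortest balanced loci had 601 and 603 bases, and the next shorter loci that met the other limits had 593 and 592 bases. By level, the lower value was 203.0 and 203.3 FPKM just inside the limit, and 198.8 and 198.6 FPKM just outside it. By fold, the values were 1.482 and 1.480 just inside and 1.515 and 1.521 just outside.

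The other 94 long abundant loci differed by more than 1.5-fold on the deposited scale, 23 higher in head and 71 higher in body. Body was thus the higher tissue in 75.5% of them (exact Clopper-Pearson 95% interval 65.6% to 83.8%, which takes loci as independent). This split depends on the scaling: with body rescaled to the upper quartile of head, 58 loci were over 1.5-fold higher in head and 45 in body, and with equal sums 50 in head and 53 in body. The balanced loci had a median geometric mean of 437 FPKM, against 836 FPKM for the 23 loci and 763 FPKM for the 71. All groups share the limit of 200 FPKM on the lower value, so a larger fold by itself raises the geometric mean. In the lower tissue the medians were 524 FPKM (body) for the 23 loci and 423 FPKM (head) for the 71. The balanced loci had medians of 411 FPKM in head and 465 FPKM in body. The median length of the balanced loci was 895.5 bases, against 1142 and 1001 bases. These differences were not tested, since the rule sets limits on both measures.

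**Figure D3:**
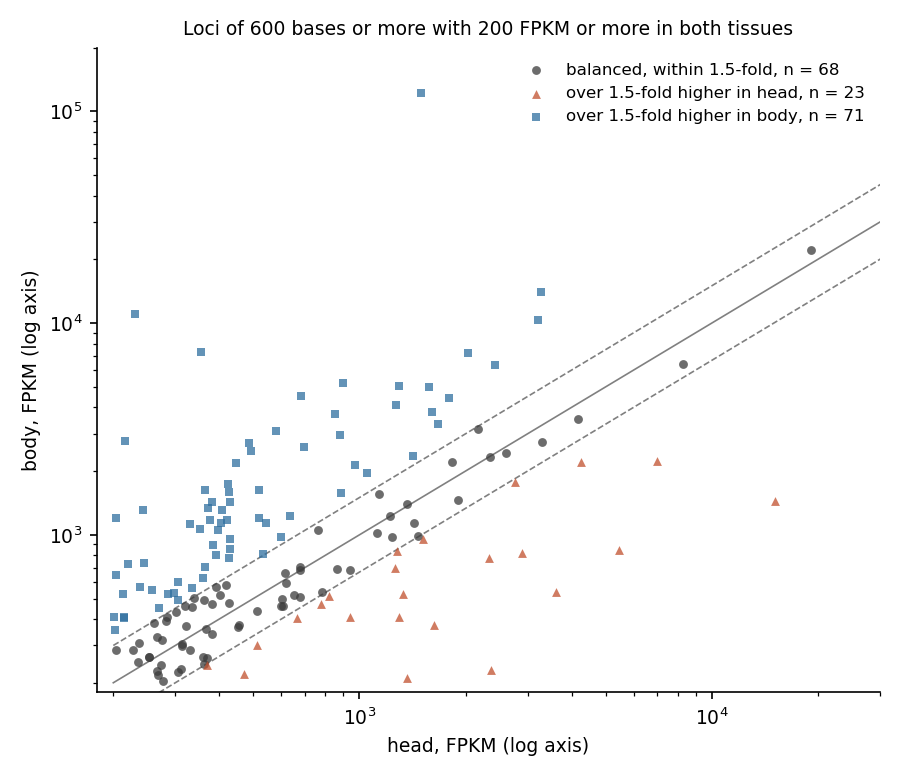
Head FPKM against body FPKM (both log axes) for the 162 long abundant loci: 68 balanced loci (circles), 23 loci over 1.5-fold higher in head (triangles) and 71 over 1.5-fold higher in body (squares). The solid line marks equal values and the dashed lines 1.5-fold. On the deposited scale shown, squares above the upper dashed line outnumber triangles below the lower one.

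Balance within 1.5-fold was not confined to abundant or long loci. Among loci of 600 bases or more it held for 42.0% of the 162 with at least 200 FPKM in both tissues (95% interval 34.3% to 49.97%). With a lower value of 50 to 200 FPKM it held for 37.7% of 599 loci, of 10 to 50 FPKM for 45.6% of 2710, and of 1 to 10 FPKM for 30.4% of 6114. Among loci under 600 bases with at least 200 FPKM in both tissues it held for 31.5% of 520 (95% interval 27.6% to 35.7%). FPKM of short loci divides by a small effective length, so the limit of 200 FPKM is not like for like between the length classes.

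The assembly gave information that the rule did not use. The assembler Trinity names each contig by a component (a cluster of contigs built together), a gene within it and a variant of that gene. The 68 balanced loci lay on 68 contigs from 65 Trinity genes and 63 components. Another locus of the same Trinity gene was present for 28 of the 68, or 41.2% (exact 95% interval 29.4% to 53.8%), against 39.1% of the 23 loci higher in head, 32.4% of the 71 loci higher in body and 36.4% of all loci of 600 bases or more. Another locus of the same component was present for 85.3% of the balanced loci (74.6% to 92.7%), against 91.3% and 91.5% of the others at these levels and 71.1% of all loci of 600 bases or more. The locus began within the first 20 bases of its contig in 69.1% of the balanced loci, against 73.9% of the loci higher in head and 70.4% of those higher in body, and in 41.9% of all loci of 600 bases or more. On these measures the intervals of the balanced loci include the values of the other long abundant loci.

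In 3 Trinity genes, 2 variants were each balanced, and they are named here after their values were seen. XLOC_006016 had 606 FPKM in head against 460 FPKM in body, and its variant XLOC_006017 had 305 FPKM in head against 226 FPKM in body, with log2 ratios of 0.40 and 0.43. XLOC_006959 had 600.045 FPKM in head against 461 FPKM in body, and its variant XLOC_006961 had 369 FPKM in head against 263 FPKM in body, with log2 ratios of 0.38 and 0.49. In both genes the variants leaned to head by about the same amount at different levels. XLOC_012699, on bases 1 to 606 of TRINITY_DN12781_c4_g4_i2, is a variant of the most abundant locus and had 2605 FPKM in head against 2438 FPKM in body, with a log2 ratio of 0.10, where XLOC_012697 had -0.21.

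One variant of a balanced locus was strongly higher in head. XLOC_012062, on bases 7 to 781 of TRINITY_DN12637_c1_g3_i3, is balanced with 267 FPKM in head against 328 FPKM in body, with a log2 ratio of -0.30. XLOC_012061, on bases 11 to 2736 of TRINITY_DN12637_c1_g3_i1, had 276 FPKM in head against 21.1 FPKM in body, with a log2 ratio of 3.71, and the authors' deposited table calls it with a q of 0.00041. Their head values are alike, and the body values differ. Whether these contigs are transcripts of 1 gene was not tested, since no contig sequence was used here. Variants at lower levels differed to either side, and those called are named here after their values were seen. XLOC_002144 was higher in head, with a log2 ratio of 1.54. XLOC_000338 and XLOC_008424 were higher in body, with log2 ratios of -2.65 and -2.54.

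The loci of the balanced loci's Trinity genes that are not balanced loci themselves numbered 30, of which 14 lay within 1.5-fold. XLOC_012061 and XLOC_012698, given above, are among the 30. Of the 10 with at least 200 FPKM in both tissues, all under 600 bases, 8 lay within 1.5-fold (80.0%, exact 95% interval 44.4% to 97.5%), and their log2 ratios ran from -0.84 to 0.63. Of the 20 with less than 200 FPKM in at least 1 tissue, 6 lay within 1.5-fold (30.0%, 11.9% to 54.3%), and the log2 ratios ran from -6.59 to 3.71. A locus high in only 1 tissue falls in the second class by its ratio alone, so nothing is read from the difference between the classes. Split by the higher value instead, 8 of the 12 loci that reach 200 FPKM lay within 1.5-fold (66.7%, 34.9% to 90.1%), and 6 of the 18 others (33.3%, 13.3% to 59.0%). The authors' deposited table calls 0 of the 10 and 4 of the 20. For the loci higher in head the matching count of abundant short loci within 1.5-fold was 0 of 5, and for those higher in body 3 of 8. The difference between these counts was not tested. Variants of a gene can share reads, so their values are not independent of those of the balanced loci. With body rescaled to the upper quartile of head and the rule applied anew, 14.3% of the other loci lay within 1.5-fold, against 46.7% as deposited.

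**Figure D4:**
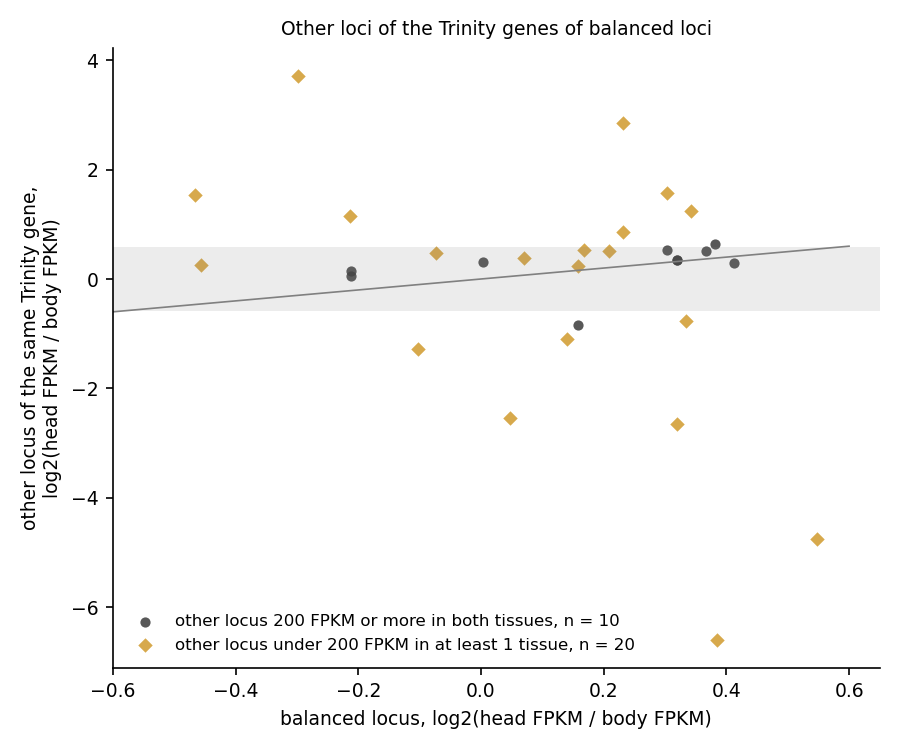
Log2 ratio of head over body FPKM of 30 other loci of the same Trinity genes (y) against that of the most abundant balanced locus of the gene (x); the band marks 1.5-fold and the line equal ratios. The 10 loci with 200 FPKM or more in both tissues (circles) lie between -0.84 and 0.63, and the 20 lower ones (diamonds) between -6.59 and 3.71.

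Loci of other Trinity genes in the same components numbered 305, of which 99 lay within 1.5-fold (32.5%, exact 95% interval 27.2% to 38.0%), with 151 higher in head and 154 in body. Of the 263 with less than 200 FPKM in at least 1 tissue, 76 lay within 1.5-fold (28.9%). The other 42 had at least 200 FPKM in both tissues, and 23 of them lay within 1.5-fold (54.8%). Among the 42 were 9 loci of 600 bases or more in 8 components, with log2 ratios of -6.36 to 3.37. The authors' deposited table calls 5 of the 9, and by the rule 0 of the 9 could lie within 1.5-fold. A subset, short loci abundant in both tissues, was chosen after the values were seen. Its limit on level also depends in part on the ratio. The subset covers 33 loci of 163 to 518 bases, with at least 200 FPKM in both tissues, in 11 components. Of these, 23 lay within 1.5-fold (69.7%, exact 95% interval 51.3% to 84.4%). These intervals take loci as independent, although up to 6 of the 33 come from 1 component. For components of loci higher in head the count was 1 of 12, and for those of loci higher in body 6 of 25. A component can hold loci of more than 1 group, so these sets share loci. The short locus of TRINITY_DN10932_c1 with a log2 ratio of -6.57 is in the 33 and in the 25. The difference between these counts was not tested. On the deposited scale 32 of the 33 had the same higher tissue as the most abundant balanced locus of their component. Among the 30 other loci of the balanced loci's own Trinity genes, 16 had the same higher tissue as the balanced locus. These were 7 of the 10 with at least 200 FPKM in both tissues and 9 of the 20 others. Counted by component, a shared higher tissue held for every short locus in 10 of the 11. The rule keeps the ratios of balanced loci near 1, so their direction can rest on a very small difference. In TRINITY_DN10251_c3, which has 4 of the short loci, the balanced locus had a log2 ratio of 0.003. In TRINITY_DN12781_c4 the 2 balanced loci had -0.21 and 0.10, so the shared direction there depends on which of them is taken. Under the upper-quartile rescaling, which puts 66 of the 68 balanced loci higher in head, a shared direction distinguishes few loci. With the rule applied anew on that scale, 52.4% of 21 such loci lay within 1.5-fold.

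The components below are named after their values were seen. In some of them the ratios lay close together, and in others they did not. In TRINITY_DN11097_c0 the balanced locus XLOC_004651 had 1828 FPKM in head against 2217 FPKM in body, with a log2 ratio of -0.28, and the 4 short loci had log2 ratios of -0.38 to -0.15. In TRINITY_DN10144_c4 the balanced loci XLOC_000345 and XLOC_000337 had log2 ratios of 0.37 and 0.32, and the 3 short loci, at 13398 to 28983 FPKM in head and 9468 to 23605 FPKM in body, had 0.30 to 0.56. In TRINITY_DN12346_c4 the balanced locus XLOC_010609 had 680 FPKM in head against 511 FPKM in body, with a log2 ratio of 0.41, and the 6 short loci had 0.57 to 0.99. The short loci of that component leaned further to head than the balanced one. In TRINITY_DN10932_c1 the balanced locus XLOC_003822 had 616 FPKM in head against 661 FPKM in body, while 2 short loci had 230 and 355 FPKM in head and 20676 and 33759 FPKM in body. Those 2 loci, with log2 ratios of -6.49 and -6.57, are called in the authors' deposited table. FPKM of loci this short divides by a small effective length, so their levels cannot be set against those of long loci. Contigs of 1 component may share stretches of sequence, which is unknown for these because no contig sequence was used. The part of shared reads in these like ratios was not tested.

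**Figure D5:**
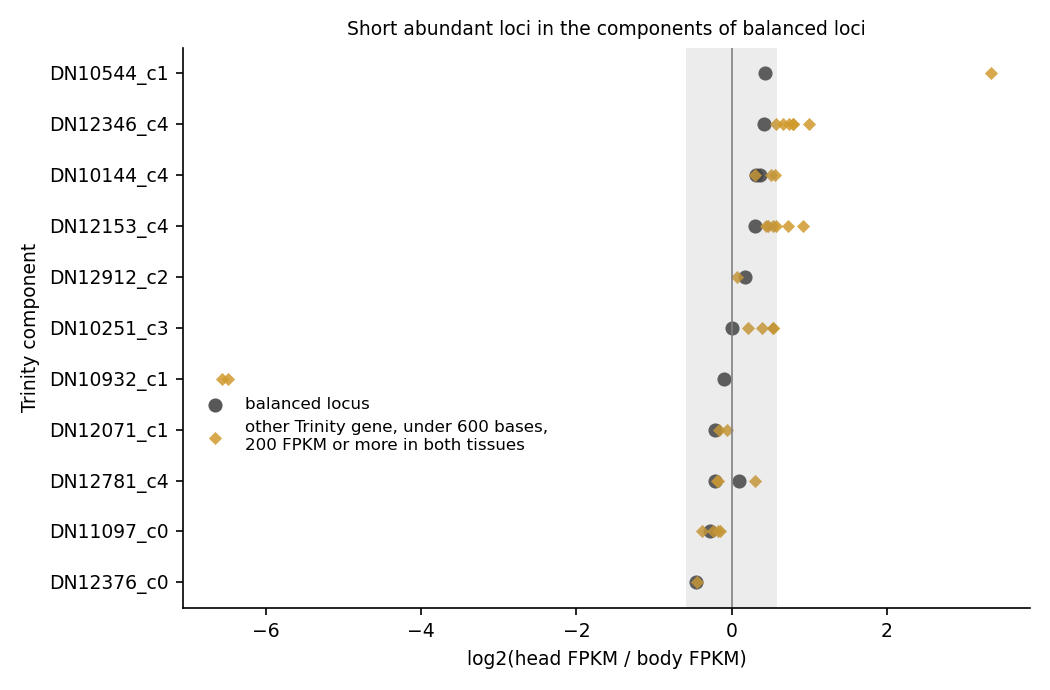
Log2 ratio of head over body FPKM of balanced loci (circles) and of 33 short abundant loci of other Trinity genes (diamonds) in the 11 components that hold both, ordered by the ratio of the most abundant balanced locus; the band marks 1.5-fold. In 9 components the diamonds lie between -0.45 and 0.99, and in DN10544_c1 and DN10932_c1 they lie far outside the band.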

How the data were processed

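Trizol was used to extract the RNA and an Illumina TruSeq kit to prepare libraries, per the labels' protocols. The submitters' processing notes name TopHat and Cufflinks, with no version. How the tissues were scaled to each other, and with which alignment settings, is not given in the sources used here. The deposited table, laid out like Cuffdiff gene output per the file headers, holds the authors' FPKM per tissue, a test score, a p-value and a q-value. Length is end minus start of the locus, and starts are given from 1. Because no values per library were analysed here, calls are the authors' at a q of 0.05. No test was added. The balanced loci and the comparisons were chosen with earlier results of these data known.

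Named loci are the 4 with the highest geometric mean, the 2 longest, and the 2 pairs of variants that differ most in log2 ratio, where the other variant is 600 bases or longer and reaches 200 FPKM in a tissue. Other loci are named after their values were seen, as stated there.

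For fragment numbers, FPKM × (length − 202 bases)/1000 was taken for low values of loci of 600 bases or more. The 2 lowest steps, 0.0882 and 0.119 in head and 0.210 and 0.226 in body, were read as 1 fragment in each library. By these steps head was 2.15 times as deep as body, and depth in reads is unknown. The reading of the steps and the adjustment of p-values were tested on simulated data. The simulation assumed 2 libraries of whole fragments per tissue, so it cannot show that the deposited values are built that way. The fragment numbers and the relative depth rest on that assumption. Alternatives were other limits of length, level and fold, other scalings, 1 locus per Trinity gene, no overlapping loci, a stricter or recomputed q and pseudocounts. The work was done in Python 3.11.15 (scipy 1.17.1, numpy 2.4.6, pandas 2.3.3; figures in matplotlib 3.10.9).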

Additional observations from a re-analysis of the deposited data

How the results depend on the processing

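The number of balanced loci, 68, follows the limits by construction: 25 at 1000 bases, 135 at 100 FPKM, 26 at 500 FPKM, 34 with the larger value at most 5/4 of the smaller, and 9 in TPM, where 200 is a higher level. It stayed within 1.5 times in the other 6 settings. Called loci numbered 0 except for 1 at a limit of 2-fold and 5 with body rescaled to the upper quartile of head. For the same 68 loci the median log2 ratio moved to 0.60 under that rescaling and to 0.43 with equal sums, both added after seeing the data. Loci with another locus of their Trinity gene made up 53.8% at 500 FPKM, 27.8% with equal upper quartiles and 55.6% in TPM, against 41.2%. Other loci of these genes within 1.5-fold made up 14.3% with equal upper quartiles, 0% in TPM and 25% with equal sums, against 46.7%. The loci that met the rule then numbered 54, 9 and 57, against 68, so the TPM value rests on few loci. The cause was not tested. Short abundant loci of the same components within 1.5-fold made up 92.3% at 1000 bases and 84.6% with the fold limit of 5/4, against 69.7%. Of the long abundant loci over 1.5-fold, body was the higher tissue in 43.7% with equal upper quartiles and 51.5% with equal sums, both added after seeing the data, against 75.5%. The median length was 788.5 bases at a limit of 500 bases, 1696 at 1000 bases, 1128 at 100 FPKM and 1000.5 with equal upper quartiles. Without the offset, the lowest fragment number in body was 807, against 575. No paired analysis was possible because each tissue has a single value per locus, and leaving out libraries could not be run either. Depth limits body more than head.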
